A study of Homo sapiens with 8 samples.

Results

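Guides against 15 genes of chromatin remodelling, histone modification and histone deposition were followed through a Cas13d dropout screen. The genes were taken from a fixed set of symbols for remodeller subunits, acetyltransferases, deacetylases, histone chaperones and methyltransferase cofactors, and the rule itself uses no measured value, although it was written with earlier results of these data known. They carried 1052 of the 46829 guides, on 141 of the 6735 targeted exon-exon junctions and in 15 of the 1250 genes. A further 2 genes with matching symbols, CHD3 and SMARCA1, belonged to the non-essential control set (7 guides) and were left out. A junction had 2 to 8 guides, and 111 of the 141 had 8, so the guides of a junction share their target and are not replicates of a condition.

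The cells were A375, an established human melanoma line. Their genotype was TetO-RfxCas13d in every group, a monoclonal line in which doxycycline induces RfxCas13d, an RNA-guided nuclease that cuts RNA and leaves the genome intact. The pool was sampled at Day 0 without doxycycline, and at Day 7, 14 and 21 under 1 ug/ml doxycycline, with 2 replicates of each, 8 libraries in all. The Day 0 samples are labelled with no treatment, while a protocol text shared by all samples names doxycycline, and Day 0 was taken here as untreated. Genomic DNA served as the template, and the integrated guide cassettes were amplified from it by PCR for each library. All cells descend from 1 clone, and the labels say nothing on whether the replicates were separate infections, so the p-values measure the spread between these samples only.

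Chromatin remodellers use ATP to slide, evict or exchange histones, and they work as large assemblies that share subunits: the same AAA+ ATPases and actin-related proteins serve in INO80, SRCAP and TIP60. Acetyltransferases and deacetylases write and erase lysine acetylation, and histone chaperones place histones on newly replicated or transcribed DNA. Many of these factors are needed by all dividing cells, and a guide against a needed transcript becomes rarer as its carrier cells grow less than the rest of the pool.

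Every value is a log2 fold change of a guide against Day 0 of the same replicate, so the 3 days share their Day 0 libraries. A value of -1 is a halving of the guide's share. Read depth was not stated. The deposited values equal a constant of the library plus the log2 of a ratio of whole numbers, and the smallest Day 0 number that serves all days of a guide, called its implied number, is a lower bound on the scale of its count. The median implied number of the chromatin guides was 95 at Day 0 and 67.5 at Day 21 in replicate 1, and 130 and 108 in replicate 2. At Day 21, 22 chromatin guides (2.09%) in replicate 1 and 18 (1.71%) in replicate 2 had reached an implied number of 1, the lowest possible. Their fold changes may be limited by depth, which cannot be settled without the counts. Knockdown of the target RNA is not part of these data.

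The chromatin guides as a class left the non-targeting guides between Day 7 and Day 14. Their median log2 fold change in replicates 1 and 2 was 0.01 and -0.10 at Day 7, -0.32 and -0.30 at Day 14, and -0.31 and -0.34 at Day 21. The 963 non-targeting guides had medians of -0.04 and 0.00 at Day 21, and the 1992 guides against non-essential control genes -0.07 and 0.03. The difference between the medians of chromatin and non-targeting guides was -0.053 ± 0.089 (SD, n = 2) at Day 7, -0.293 ± 0.003 at Day 14 and -0.305 ± 0.047 at Day 21. It lay below 0 in both replicates at the later days and straddled 0 at Day 7. With 2 replicates an exact sign-flip test cannot go below p = 0.5, so no test of the class was made. The 42822 guides against the other genes with a GeCKO score, a deposited gene score named after a Cas9 knockout library, had medians of -0.36 and -0.30 at Day 21, close to those of the chromatin guides.

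At gene level, the mean over a gene's guides was tested against 0 with limma, with a call where the Benjamini-Hochberg adjusted p over the 1223 genes with at least 3 guides was under 0.05. By Day 21, 4 of the 15 genes had fallen, among them CHAF1B, SMARCA5 and EP400, and none of the 15 rose (0.654% of all genes did). At an unadjusted p under 0.05, limma had 8 of the 15, all of them lower, against 35.5% of all genes lower at that threshold. These 4 of 15 stand beside 20.8% of all genes tested, and 28.2% of the 829 tested genes with a GeCKO score, called lower at that day. At Day 14 the same 4 genes and HCFC1 had fallen, 5 of 15, against 22.1% of all genes. At Day 7 limma called 0 of the 15, against 3.92% of all genes, and 1 of them had an unadjusted p under 0.05, against 12.2% of all genes. The median of the 15 gene means moved from -0.04 at Day 7 to -0.44 at Day 14 and -0.49 at Day 21, beside -0.03, -0.24 and -0.28 over all genes tested. Between Day 7 and Day 21 those 4 of 15 also changed by a limma test of the difference, where 23.5% of all genes were called lower. The median was -0.43 at Day 21 over the genes with a GeCKO score. With the replicate number as a block in a fit of all days, limma called 10 of the 15 lower at Day 21 and 9 at Day 14, against 45.5% and 38.3% of all genes. The 6 further genes at Day 21 were RUVBL2, KAT8, RUVBL1, HCFC1, ACTL6A and HDAC3, and the shared fit without the block called them too. Without the block, the days of a replicate are taken as independent although they share Day 0. The block takes the replicate difference common to the days out of the spread. Adjusted p-values of both fits may be too small, so these calls, here and below, add no independent support. The call depends on the scale: with each library centred on the median of all guides, 1 of the 15 was called at Day 21, and CHAF1B, SMARCA5 and EP400 had adjusted p-values of 0.055, 0.0548 and 0.158.

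Single junctions were tested in the same way over the 6401 junctions with at least 3 guides. Junctions are numbered in the direction of transcription among the targeted junctions of a gene, which need not include its outermost junctions. At Day 21 limma estimated no variation between junctions in their replicate spread, and so gave every junction of the fit the same standard error, 0.36. A call there is in effect a threshold on the mean, met by chromatin junctions at -0.94 or lower, and disagreement of the replicates at a junction does not enter it. Of the 139 chromatin junctions tested, 38 were called lower, 27.3%, against 25.3% of all junctions, and 2 were called higher, against 0.937%. All 38 lay below 0 in both replicates. In a test added after the values had been seen, each junction's mean was set against that of the other guides of its gene, which also cancels the scale of the library. There 17 chromatin junctions were lower than the rest of their gene (12% of all 6111 junctions so tested) and 10 were higher (9.92%). With medians over the guides in place of means, fewer were called in either direction, and most calls of higher were lost. Calls of this contrast for single junctions below rest on the means. The contrasts of a gene share their guides, so they are not independent of each other.

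Among the histone chaperones, CHAF1B fell as a gene, while SSRP1 was not called as a gene and had 3 junctions that fell. CHAF1B is the p60 subunit of CAF-1, which deposits histones behind the replication fork. Its 62 guides averaged -0.05 and -0.23 at Day 7, -0.85 and -1.02 at Day 14, and -1.28 and -1.36 at Day 21 (mean -1.32, SE 0.14, limma adjusted p = 0.0169). The replicates lay close together at each day, and r between them over its guides was 0.70 at Day 21. Of 8 junctions on chromosome 21, 4 were called lower. The fourth, from 36397511 to 36399520, reached -4.29 and -3.97, the lowest of all chromatin junctions, with 7 of its 8 guides at -1 or lower in both replicates. It differed from the rest of the gene by -3.23 with an SE of 0.36 (limma adjusted p = 9.67e-09). Without that junction the mean of CHAF1B at Day 21 was -0.83 and -0.97. At the other end, the junctions from 36391668 and from 36413315 stood at -0.07 and -0.57, and at -0.16 and -0.33, and both were higher than the rest of the gene. The lowest guide, on the junction from 36402851, was at -6.83 and -7.46, with implied numbers of 119 and 161 at Day 0 and 1 in both replicates at Day 21. The highest guide, on the junction from 36411604, was at 0.78 and 1.65.

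SSRP1 is a subunit of FACT, which loosens and rebuilds nucleosomes ahead of and behind polymerases. Its 93 guides averaged -0.15 and -0.09 at Day 21 (mean -0.12, SE 0.14, limma adjusted p = 0.604), and the median of the guides' own means was 0.07. That mean joined guides far apart: 8 were called lower and 3 higher, and r between replicates over the guides was 0.69. SSRP1 held all 4 of the chromatin guides that limma called lower at Day 7, 0.38% of 1052 against 2.1% of all guides. The lowest of these 4, guide 3 of the first junction (chromosome 11, 57334648 to 57335067), was at -3.05 and -4.96 at Day 7, -4.87 and -6.67 at Day 14 and -6.07 and -6.40 at Day 21. Guide 2 of that junction was at -3.04 and -4.41 at Day 7 (limma adjusted p = 0.000178). These SSRP1 guides were named after their values were seen. What the guide numbers of a junction stand for was not stated.

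On that first junction, guides 2, 3 and 4 ended far below 0 at Day 21, while guides 6, 7 and 8 ended above 0 in both replicates, at 1.39 and 1.72, 2.26 and 1.31, and 2.36 and 1.95. The junction mean of -1.11 and -2.08 was thus set by 3 of 8 guides, and the median over its guides, taken in each replicate and then averaged, gave -0.60 and no call (limma adjusted p = 0.357). The second junction, from 57333540 to 57334462, averaged -1.70 and -0.84, where 2 guides stood at -6.64 and -6.40 and at -5.84 and -4.61, and its median taken in that way was -0.21. The junction from 57330927, at -0.59 and -1.31, had such a median of -0.01. SSRP1 also held both chromatin junctions called higher. The last, from 57326478 to 57326702, was at 1.34 and 0.53, and its highest guide rose from an implied 170 and 220 at Day 0 in the 2 replicates to 2830 and 1150. The fourth, from 57332280 to 57332382, was at -0.19 and 2.29, on opposite sides of 0, so replicate 2 alone carries its call.

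SMARCA5, the ATPase of the ISWI remodellers that space nucleosomes, fell with a broad base of junctions. Its 122 guides on chromosome 4 averaged -0.07 and -0.22 at Day 7, -0.98 and -1.04 at Day 14, and -1.34 and -1.25 at Day 21 (mean -1.30, SE 0.14, limma adjusted p = 0.0175). The replicates differed by less than their distance from 0 at the 2 later days. Of 16 junctions tested, 10 were called lower, and the mean without the lowest junction was still -1.27 and -1.08. The lowest, from 143521595 to 143524366, was at -2.34 and -3.73, with 7 of 8 guides called lower. The junction from 143526460 was at 0.36 and -0.59 and was higher than the rest of the gene by 1.27 (limma adjusted p = 0.0108). The most and the least depleted of all SMARCA5 guides sat on the same junction, from 143547503 to 143547927. Its guide 2 was at -6.83 and -6.24, down to an implied number of 1 in both replicates. Its guide 5 was at 0.92 and 4.85 (limma adjusted p = 0.0255), with implied numbers of 77 and 119 at Day 0 and 139 and 3752 at Day 21, so the size of that rise rests on replicate 2.

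The TIP60 and SRCAP machinery acetylates histones and exchanges the variant H2A.Z. It held 7 of the 15 genes, and 1 of them, EP400, fell at Day 21, where 20.8% of all genes did. SRCAP and VPS72, listed for it outside the 15, were measured too and not called (limma adjusted p = 0.149 and 0.0665). EP400 is the large ATPase of the TIP60 complex. Its 50 guides on chromosome 12 averaged -0.07 and -0.08 at Day 7, -0.51 and -0.74 at Day 14, and -0.67 and -0.94 at Day 21. The mean of -0.81 (SE 0.16) was just inside the threshold at a limma adjusted p of 0.0497, and it was outside with libraries centred on the non-targeting guides (adjusted p = 0.0724). Of its 7 junctions, 2 were called lower, from 131987890 to 131989963 at -1.61 and -2.22 and from 131992230 to 131994866 at -1.47 and -2.94. Both were also lower than the rest of the gene. The junction between them that starts at 131990104 was at 0.23 and 0.13 and was higher than the rest of EP400 by 1.14 (limma adjusted p = 0.0183). Its lowest guide, on the junction from 131987890, was at -2.52 and -7.56, and its highest, from 131982478, at 0.36 and 2.31, so both single guides differed between replicates by far more than the gene mean did.

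RUVBL1 and RUVBL2 are the paired AAA+ ATPases shared by INO80, SRCAP and TIP60, and ACTL6A is an actin-related subunit shared with SWI/SNF. None of the 3 was called with Day 21 fitted alone. All 3 were called in the fit of all days with the replicate block. Its limma adjusted p was 0.00969 for RUVBL1, 0.0068 for RUVBL2 and 0.0148 for ACTL6A. That fit pools the spread of the days and leaves out the replicate difference they share, so these p-values may be too small. At Day 21 RUVBL2 was at -0.80 and -0.46 (limma adjusted p = 0.0855), RUVBL1 at -0.54 and -0.46 (0.0987) and ACTL6A at -0.45 and -0.36 (0.147), all below 0 in both replicates. RUVBL2 had 4 of 10 junctions called lower, among them the junction from 49007368 to 49009775 on chromosome 19 at -1.93 and -1.21. On it 1 of 8 guides was called lower, and the median of its guides' own means was -0.71. The called junctions from 48999373, 49007147 and 49011093 had such medians of -0.12, -1.09 and -0.79. In ACTL6A a single junction of 11 was called, from 179573469 to 179574369 on chromosome 3, at -2.52 and -2.67, and 5 of its 8 guides were called lower. That junction differed from the rest of ACTL6A by -2.45 (SE 0.36, limma adjusted p = 1.97e-06), and the other 67 guides averaged -0.20 and -0.08. RUVBL1 had the same shape: its last junction, from 128097498 to 128098881 on chromosome 3, was at -1.43 and -2.06, and the other 31 guides averaged -0.31 and -0.05. Guides 5, 6 and 7 of that RUVBL1 junction were the ones called lower, and the average of the 2 replicate medians over its guides was -0.92 with no call (limma adjusted p = 0.0945).

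DMAP1 and ACTR6, scaffold and actin-related subunits of these assemblies, and KAT5, the catalytic acetyltransferase of TIP60, were not called at Day 21 in either fit. DMAP1 was at 0.17 and -0.29 at Day 21, with the replicates on opposite sides of 0. Its first junction, from 44218469 to 44218587 on chromosome 1, was called lower at -0.74 and -2.17 and was lower than the rest of the gene (difference -1.70, limma adjusted p = 0.00069). The other 36 DMAP1 guides averaged 0.37 and 0.13, above 0 in both replicates. ACTR6, at 0.02 and -0.45, had no junction and no guide called lower. KAT5 was at -0.41 and -0.17, and its called junction, from 65712834 on chromosome 11, was at -2.15 and -0.47, with the replicates far apart.

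KAT8 and KAT7 are the acetyltransferases MOF and HBO1, of the same family as KAT5. At Day 21 KAT8 was at -0.63 and -0.46 (limma adjusted p = 0.0882, and 0.00592 with the replicate block) and KAT7 at -0.12 and 0.04 (adjusted p = 0.88), and the difference between the genes was not tested. In KAT8 the second junction, from 31120260 on chromosome 16, was called lower at -2.26 and -1.42. KAT7 had no junction called. Targeted junctions in KAT7 either keep or skip an exon: the skipping junction, from 49805445 to 49811475 on chromosome 17, was at -0.45 and 0.28, and the including junctions were at 0.39 and 0.00 and at 0.13 and -0.03. None of the 3 differed from the rest of KAT7 at the threshold.

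HDAC3, the deacetylase of the NCoR and SMRT corepressors, was at -0.35 and -0.34 at Day 21 (limma adjusted p = 0.185, and 0.0234 with the replicate block). Its junction from 141629306 on chromosome 5 was called lower at -1.48 and -1.44. The replicate averages lay close together, while its lowest guide was at -4.88 and -0.64. Of its 8 guides, 6 were below 0 in both replicates and 1 was at -1 or lower in both. Over all HDAC3 guides r between replicates was -0.13. HCFC1, the scaffold protein that joins methyltransferase complexes of the MLL and SET1 type, was called lower at Day 14 and, with each day fitted alone, not at Day 21. Its 135 guides averaged -0.63 and -0.67 at Day 14 (mean -0.65, SE 0.13, limma adjusted p = 0.0359) and -0.52 and -0.47 at Day 21 (mean -0.49, adjusted p = 0.099, and 0.0116 with the replicate block). The difference of Day 21 from Day 14 was not tested. Of 17 HCFC1 junctions on chromosome X, 3 were called lower, the lowest from 153957886 to 153958024 at -3.20 and -2.05, and the junction from 153959491 was at 0.56 and 0.71.

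Read across genes, the called junctions were spread over 13 of the 15. The share of all genes with such a junction was not computed. Since 25.3% of all junctions were called lower, this spread is not read as a trait of the 15 genes. The 4 genes called at gene level held 22 of the 38, and 16 lay in 9 genes that were not called. All 17 junctions lower than the rest of their gene were among the 38. The first targeted junction of a gene was called lower in 6 of 15 genes, the last targeted in 3 of 15, and the others in 29 of 109. The shares over all junctions tested were 22.6%, 19.4% and 27.4%. By the deposited junction category, whose definition was not stated, 18 of 43 single_unique, 16 of 79 common and 4 of 16 partial_unique junctions were called lower, against 24.9%, 29.7% and 21.2% of all tested junctions of those categories. The categories follow the gene, since CHAF1B and SMARCA5 supply much of the first, so these counts carry no test. Over the 139 junctions r between the replicates was 0.72, a description in which neighbouring junctions share a gene.

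Of single chromatin guides, 112 were called lower at Day 21 (10.6%, against 11.1% of all guides) and 76 at Day 14 (7.22%, against 7.96%). All 112 were below 0 in both replicates, and 32 had reached an implied number of 1 in a replicate. Of the 112, 94 lay on junctions called lower. A called guide enters the mean of its own junction, so this overlap is in part built in and is no independent support. At Day 21, 7 chromatin guides were called higher, 0.665%, against 0.218% of all guides. SSRP1 had 3 of these, and SMARCA5, ACTL6A, RUVBL1 and KAT7 had 1 each. Among non-targeting guides 10 of 963 (1.04%) were called lower, the background of that count. A share of 17.5% of chromatin guides was at -1 or lower in both replicates, beside 3.74% of non-targeting and 7.23% of control guides. Among the guides of the other genes with a GeCKO score it was 17.8%, close to the chromatin share. Over guides, r between replicates at Day 21 was 0.51 for chromatin, 0.55 for the other scored genes and 0.03 for non-targeting guides. Guides of a junction with neighbouring numbers differed by a mean of 1.20 (896 pairs) in absolute log2 fold change. Those 5 numbers apart differed by 1.49 (370 pairs), the largest mean, and those 6 and 7 apart by 1.32 and 1.31. The difference thus did not grow steadily with distance in number. Over all genes with a GeCKO score the means at these 4 distances were 1.25, 1.45, 1.43 and 1.44.

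Other subunits of the same assemblies, from a list wider than the 15, were measured for 19 genes, and 1 of them fell at Day 21, a share below the 20.8% of all genes. This was SUPT6H, the histone chaperone SPT6 of elongating polymerase, with 223 guides at -1.17 and -1.11 (mean -1.14, limma adjusted p = 0.0207). The 19 include BRD9, KDM1A, NCOR1 and SUPT20H of the non-essential control set, with 3 to 6 guides each, a set left out of the 15. SUPT16H, the FACT partner of SSRP1, was at -0.74 and -0.48 (adjusted p = 0.0813). RBBP4, a histone-binding subunit shared by CAF-1 and deacetylase complexes, was at -1.02 and -0.61 (adjusted p = 0.0623). SRCAP, the ATPase of its complex, was at 0.45 and 0.35 on 16 guides (adjusted p = 0.149). At Day 14 RBBP4 and SUPT6H were called lower among the 19, where 22.1% of all genes were. Their Day 14 means were -0.59 and -0.92 (limma adjusted p = 0.0427 and 0.0163). SUPT16H, RBBP4 and SRCAP were singled out after their values were seen.

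The deposited GeCKO score ordered the 15 genes differently from the dropout measured here. HCFC1 had the lowest score of the 15, -1.69, rank 33 of the 829 tested genes, and rank 377 by its Day 21 mean. Across the 15 genes Pearson's r was 0.13 and Spearman's rho 0.29, given as a description. The table typed 11 of the 15 as Cas13 Essential and RUVBL2, KAT5, ACTR6 and KAT7 as Cas13 Non-Essential. The criterion was not stated and may rest on these fold changes, so the types support nothing here.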

How the data were processed

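The authors deposited 1 table that lists, per the file headers, the log2 fold change of every guide against Day 0 for each day in each replicate, and a GeCKO gene score of unstated scale, deposited for part of the genes. Per the submitters' processing notes, cutadapt 3.5, Bowtie 1.1.2 and genome build hg38 were used, and counting, pseudocount, library scaling and filters are not given in the sources used here. Junction coordinates are as deposited, and guide sequences were not used here. Libraries were matched to groups and replicates through the labels.

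From these values, gene and junction means over guides were tested against 0 at each day alone with limma 3.58.1 in R 4.3.3, with Benjamini-Hochberg adjustment over all 1223 genes, 6401 junctions (each with at least 3 guides) or 46829 guides, at a threshold of 0.05. The fits were tested on simulated data. Implied whole numbers were found with a denominator of at most 2000 and a relative tolerance of 1e-06. All values of the table came out whole. Of the 15 genes, 1 enters the counts and is not reported here. The 15 genes and all lists were chosen with earlier results of these data known. Named genes were those called at Day 21, the lowest and highest of each list, and those with a junction called lower beside another above 0 in both replicates. Named guides were the lowest and highest of each called gene, and named genes outside the 15 those called at Day 21. Other names were chosen after their values were seen. Replicate numbers pair the fold changes, because each subtracts Day 0 of its own replicate. Deviations from the day means correlated at 0.484 (Day 7 with 14), 0.411 (Day 7 with 21) and 0.647 (Day 14 with 21) over all guides. The shared Day 0 alone makes such a correlation positive, so it cannot tell whether the later libraries were paired. Alternatives were other centring, robust moderation, shared fits with and without the block, medians, higher minimums and each replicate left out.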

Additional observations from a re-analysis of the deposited data

Results flagged for a closer look

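In CHAF1B, SMARCA5 and EP400 the dropout differed between days, by a limma test of Day 21 minus Day 7 within replicates over 1223 genes. The change was -1.18 for CHAF1B (adjusted p = 0.00153), -1.16 for SMARCA5 (adjusted p = 0.0019) and -0.73 for EP400 (adjusted p = 0.027). Of all genes tested, 23.5% were called lower in this comparison, which shares the Day 0 libraries on both sides. These 3 changes were negative in both replicates.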

How the results depend on the processing

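With 2 replicates and no stated depth, calls rest on the moderated spread and on the scale of the library. The median of all guides, which one alternative moves to 0, was -0.33 and -0.28 at Day 21. CHAF1B and SMARCA5 were called under all alternatives run but centring on all guides and medians, and EP400 also failed with centring on non-targeting guides and robust moderation. The cause of these losses was not tested. Genes called lower at Day 14 (5) numbered 2 with centring on all guides, 1 with medians, and 9 in the shared fit with or without the replicate block. At Day 21 (4) they numbered 1, 1, 10 and 10. At Day 7 (0), 1 gene was called with at least 6 guides. For Day 21 minus Day 7 (4), medians gave 1. With the replicate block, lower guides numbered 1 at Day 7 (4), 124 at Day 14 (76) and 205 at Day 21 (112), higher guides 40 (7), lower junctions 59 (38) and higher junctions 5 (2). Without the block, the shared fit gave 0, 47 and, for higher guides, 11. Junctions below and above the rest of their gene (17 and 10) numbered 26 and 37 with the block, and 9 and 1 with medians. Centring on all guides reversed KAT5 (0.02), ACTR6 (0.09), SSRP1 (0.19), DMAP1 (0.24) and KAT7 (0.27), and medians reversed SSRP1 (0.16), DMAP1 (0.21) and KAT7 (0.02), none of them called. Of the other values of single genes, junctions and guides, 36 left the threshold under an alternative and 12 entered it. The class difference from non-targeting guides was -0.473 at Day 14 and -0.558 at Day 21 as means. At Day 14 it was -0.259 against control guides and -0.333 with implied Day 0 numbers of at least 50. With either replicate left out, the Day 7 difference ran from -0.116 to 0.009, the Day 14 difference from -0.295 to -0.291 and that of Day 21 from -0.338 to -0.272. The same gave 1 to 3 genes at -1 or lower at Day 14 and 32 to 108 such guides at Day 7.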
